A study of Mus musculus with 12 samples.

Results

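Capicua target genes are genes that the transcriptional repressor Cic (Capicua) is known to silence and that the ERK pathway switches on. They were chosen by symbol, as the 9 genes Etv1, Etv4, Etv5, Dusp4, Dusp6, Spry2, Spry4, Spred1 and Spred2, and all 9 were found among the 15759 rows of the table of normalized counts. Their levels were compared across 4 groups of whole brain regions, namely the cortex and the cerebellum of SCA1 KI mice (Atxn1 154Q/2Q) and of WT littermates. All mice were on a pure C57BL/6J background and 12 weeks old. SCA1 KI mice express ataxin-1 with an expanded polyglutamine stretch from its own locus, so that every cell that normally uses Atxn1 carries it. Each group held 3 libraries of poly-adenylated RNA, for 12 in all, with 29520855 to 51311309 reads on genes in each. The libraries are called here by the marks of the deposited columns, which are B, C and D for WT cortex, A, E and F for SCA1 KI cortex, 2, 4 and 6 for WT cerebellum and 1, 3 and 5 for SCA1 KI cerebellum. The labels list male mice and the study's methods both sexes. The cerebellar libraries were taken over from earlier work of the same laboratory, so that region and data set cannot be told apart.

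Cic is a DNA-binding repressor that sits on a short motif in the promoters and enhancers of its targets and is held in a complex with ataxin-1 or the related ataxin-1-like protein. Growth factors and neurotrophins act through receptor tyrosine kinases, Ras, Raf and MEK on the kinase ERK, which phosphorylates Cic and lifts the repression. Many of the genes released in this way feed back on the pathway. Dusp4 and Dusp6 encode phosphatases that remove the activating phosphates from ERK, Spry2 and Spry4 encode Sprouty proteins and Spred1 and Spred2 encode Sprouty-related proteins that limit the step from receptor to Raf, and Etv1, Etv4 and Etv5 encode the Ets transcription factors of the PEA3 group. Cic bound to ataxin-1 with an expanded polyglutamine stretch is a studied feature of the SCA1 cerebellum.

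Promoters are shown for the 3 members that differed between the genotypes in the cortex, since the motif of Cic could be looked for in them. The motif was searched as TGAATGAA, TGAATGGA, TCAATGAA and TCAATGGA on both strands, in windows of 300 bases that reach from 250 before to 50 after a transcription start (RefSeq, GRCm38.p6). Of 32851 windows of all genes, 3.84% held at least 1 of these motifs and 0.183% held at least 2. Etv1, Etv5, Dusp6, Spry2, Spred1 and Spred2 have 8 windows between them, and no window was used for Etv4, Dusp4 and Spry4. Capitals mark a motif as read on the gene's own strand, the rest is in lower case, and each run is given 5′ to 3′. The first run is chr10:99262981-99263260 on the plus strand and ends 30 bases into the transcript, the next is chr14:105896820-105897069 on the minus strand and the last is chr2:117120821-117121070 on the plus strand, both of which end at the RefSeq start. For Spred1 the bases that follow this start were not found in a GENCODE transcript, and GENCODE places the start of the gene further downstream, at 117121374.
Dusp6: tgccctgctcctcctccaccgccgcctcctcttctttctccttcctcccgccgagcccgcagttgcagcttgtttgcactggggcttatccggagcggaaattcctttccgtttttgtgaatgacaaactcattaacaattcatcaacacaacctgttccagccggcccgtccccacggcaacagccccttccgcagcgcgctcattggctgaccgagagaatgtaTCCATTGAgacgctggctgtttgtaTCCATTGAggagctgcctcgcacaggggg
Spry2: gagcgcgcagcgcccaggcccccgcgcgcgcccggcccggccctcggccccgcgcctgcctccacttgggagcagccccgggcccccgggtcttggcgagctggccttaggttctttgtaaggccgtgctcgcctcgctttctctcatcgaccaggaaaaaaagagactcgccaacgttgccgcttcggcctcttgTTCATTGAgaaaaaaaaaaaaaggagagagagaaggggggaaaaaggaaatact
Spred1: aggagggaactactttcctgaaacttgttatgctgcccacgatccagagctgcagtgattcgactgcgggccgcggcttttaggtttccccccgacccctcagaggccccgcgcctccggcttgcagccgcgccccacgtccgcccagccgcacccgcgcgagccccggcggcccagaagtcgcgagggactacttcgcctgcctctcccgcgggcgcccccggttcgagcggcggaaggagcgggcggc

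The Dusp6 window held TCAATGGA at 2 places, both on the strand opposite to the gene, where the letters read TCCATTGA. The first letter lies 24 bases before the start in one case and at base 2 of the transcript in the other. The Spry2 window held TCAATGAA once on the opposite strand (TTCATTGA), 54 bases before the start. No match was found in the windows of Spred1, Etv1, Etv5 and Spred2, which says only that these letters are not in those windows. Both members with a match were also those called by limma in the test of a difference between the regions, and 4 members with a window had neither. Spred1, without a match, was called in the cortex but not in that test. Etv1, also without a match, passed that test in DESeq2 (adjusted p = 0.0196). This is a description of 6 genes, and a relation of the motif to the calls was not tested.

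In the cortex, the SCA1 KI levels of Capicua target genes lay under those of WT. All 9 had an LFC (log2 fold change) below 0, from −0.74 to −0.19 with a median of −0.40, whereas the median over all 15369 tested genes was −0.0028 and 50.5% of them lay below 0. DEGs were genes that passed a Benjamini-Hochberg adjusted p of 0.05 in limma with an LFC beyond 0.25 in either direction, and 3 of the 9 fell in the SCA1 KI cortex (Dusp6, Spry2 and Spred1) and 0 rose. Of all tested genes, 15.6% were DEGs in the cortex, 10.8% in the lower and 4.82% in the higher direction. At an unadjusted p under 0.05, 5 of the 9 passed, the further ones being Etv1 and Etv5, while 30.5% of all tested genes did. The count was 3 by edgeR and 4 by DESeq2, which added Etv1. In bulk tissue, fewer cells of a type and less RNA per cell cannot be told apart.

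Dusp6, the ERK phosphatase, had normalized counts of 3052, 4761 and 3060 in the WT cortex (libraries B, C and D) and of 1882, 2517 and 2011 in the SCA1 KI cortex (A, E and F). Every SCA1 KI library lay below every WT library, and library C stood above the other WT libraries. The means were 3624 ± 984 and 2137 ± 335 (SD, n = 3 each), and the LFC was −0.74 with a standard error of 0.19 (adjusted p = 0.0164, limma), which is a fall of the level to 0.599 of WT. The gene lies on chromosome 10 from 99263231 to 99267489 on the plus strand (GRCm38, GENCODE vM21).

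Spred1, which restrains the activation of Raf by Ras, had normalized counts of 11984, 16256 and 11658 in the WT cortex and of 8960, 10557 and 9605 in the SCA1 KI cortex. The groups did not overlap, and C was again the highest and A the lowest of the 6 libraries. The means were 13300 ± 2566 and 9707 ± 803 (SD, n = 3 each), with an LFC of −0.44 (standard error 0.12, adjusted p = 0.0275, limma). Spred1 lies on chromosome 2 from 117121374 to 117182279 on the plus strand.

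Spry2, a Sprouty protein that ERK signalling induces, had normalized counts of 2031, 2606 and 2023 in the WT cortex and of 1706, 1846 and 1788 in the SCA1 KI cortex. The libraries did not overlap, and WT libraries B and D differed from each other by less than either did from C. The means were 2220 ± 335 and 1780 ± 70.4 (SD, n = 3 each), with an LFC of −0.31 (standard error 0.086, adjusted p = 0.0264, limma). Spry2 lies on chromosome 14 from 105891947 to 105896819 on the minus strand.

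**Figure D1:**
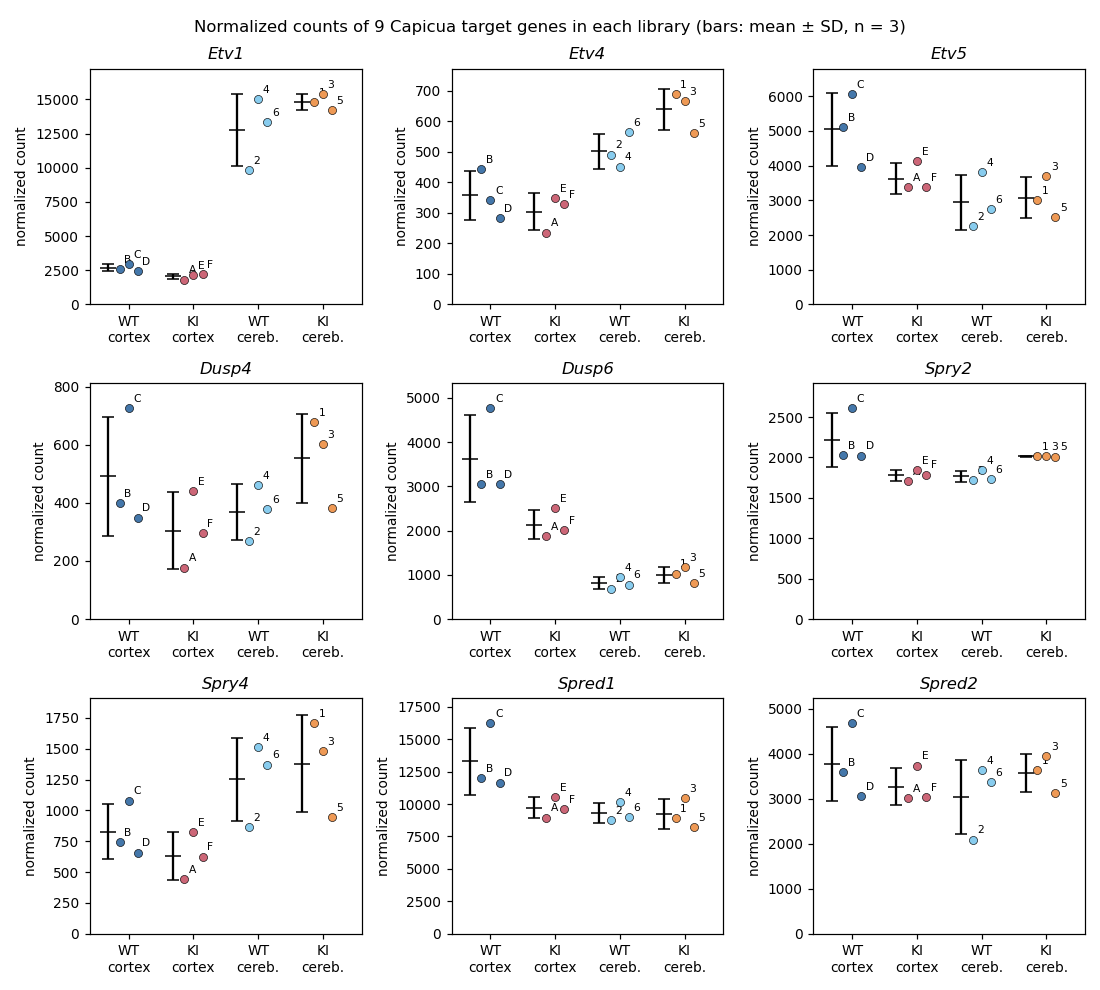
Normalized counts (y axes, linear from 0) of the 9 Capicua target genes in each of the 12 libraries, with 1 panel for each gene and 1 column for each group. Points are libraries with their marks and black bars the mean ± SD of 3 libraries. In the cortex the SCA1 KI libraries of Etv1, Dusp6, Spry2 and Spred1 lie under those of WT, and library C is the highest WT point in 8 of 9 panels.

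The PEA3 group of Ets factors had LFCs of the same sign in the cortex without passing the threshold. Etv1 had normalized counts of 2611, 2968 and 2465 in WT and 1820, 2138 and 2207 in SCA1 KI cortex, again without overlap. Its LFC was −0.38 (standard error 0.13, adjusted p = 0.0607, limma). It passed in DESeq2 (adjusted p = 0.0279) and with the cortex fitted on its own (limma, adjusted p = 0.0446), as well as without WT cerebellar library 2 or 4. In that fit of the cortex on its own, the calls of Spry2 (adjusted p = 0.11) and Spred1 (adjusted p = 0.0612) were lost. Etv5 had counts of 5113, 6067 and 3963 in WT and 3373, 4132 and 3375 in SCA1 KI cortex, where SCA1 KI library E exceeded WT library D. Its LFC was −0.46 (standard error 0.20, adjusted p = 0.131, limma). Etv4, the least abundant of the group, had 444, 343 and 283 in WT against 236, 348 and 329 in SCA1 KI cortex, which overlap. Its LFC was −0.23 (standard error 0.18, adjusted p = 0.422, limma). Etv1, Etv4 and Etv5 lie on chromosome 12 from 38779380 to 38870484, chromosome 11 from 101769742 to 101785371 and chromosome 16 from 22381309 to 22439719.

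For the other feedback inhibitors the SD of the WT cortex libraries exceeded the difference between the means. Dusp4, a nuclear ERK phosphatase, had counts of 398, 725 and 350 in WT and 177, 440 and 296 in SCA1 KI cortex, with an LFC of −0.71 (standard error 0.35, adjusted p = 0.191, limma). Its LFC was close to that of Dusp6, but the coefficient of variation was 41.6% in the WT and 43.2% in the SCA1 KI cortex against 27.2% and 15.7% for Dusp6. Spry4 had counts of 746, 1080 and 658 in WT and 442, 827 and 625 in SCA1 KI cortex (LFC −0.40, standard error 0.28, adjusted p = 0.368, limma). Spred2 had 3583, 4681 and 3057 in WT and 3021, 3735 and 3036 in SCA1 KI cortex (LFC −0.19, standard error 0.20, adjusted p = 0.548, limma). In each of these 3 genes SCA1 KI library E reached into the WT range. The SCA1 KI libraries were all lower than the lowest WT library for 4 of the 9 members and for 18% of the tested genes. Dusp4 lies on chromosome 8 from 34807297 to 34819894 and Spred2 on chromosome 11 from 19924375 to 20024026, and no exon of the 9 members is shared with another gene.

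Which members were called in the cortex depended on single libraries. WT library C was the highest of the 6 cortex libraries for 8 of 9 members, on average 0.31 (log2) above the WT mean, and SCA1 KI library A was the lowest for 9 of 9, on average 0.68 below it. Without library C, 0 of 9 members were called, with LFCs of −0.53 for Dusp6 (adjusted p = 0.0684), −0.19 for Spry2 (adjusted p = 0.0672) and −0.29 for Spred1 (adjusted p = 0.102). Without library A, 0 were called as well, with LFCs of −0.65, −0.28 and −0.38 (adjusted p = 0.0583, 0.074 and 0.087), and without SCA1 KI library F only Dusp6 was called. The LFCs of all 9 members remained below 0 whichever of the 12 libraries was left out, but that of Etv4 came to −0.053 without library A and that of Spred2 to −0.027 without library C.

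**Figure D2:**
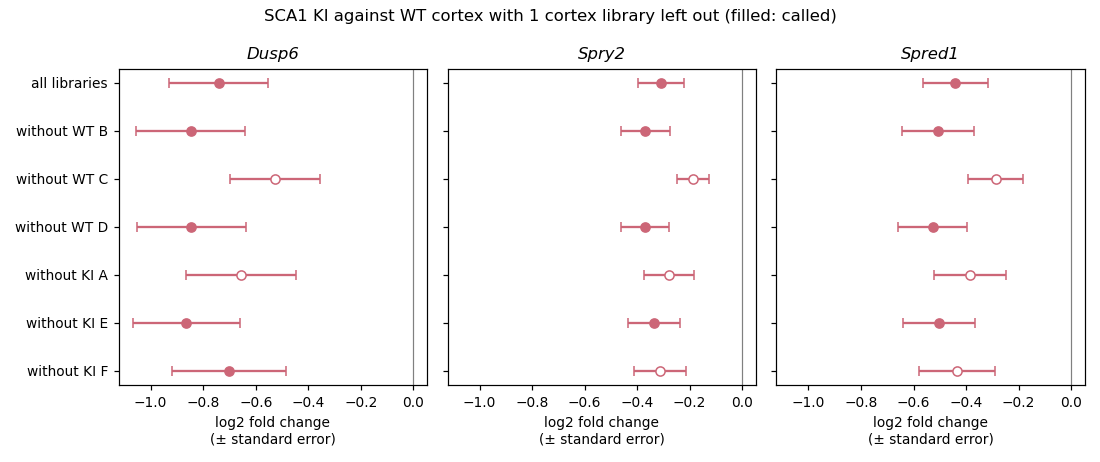
LFC of SCA1 KI against WT cortex (x axes, log2, with bars of 1 standard error, limma) for Dusp6, Spry2 and Spred1 with all libraries and with each cortex library left out in turn. Filled points pass the adjusted p and the limit on the LFC. Points are unfilled in all 3 panels without WT library C and without SCA1 KI library A, and all points lie below 0.

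In the cerebellum, most of the same genes had values on the other side of 0. Of the 9 LFCs, 8 were above 0, from −0.02 to 0.58 with a median of 0.24, against a median of −0.0049 over all tested genes, of which 48.7% lay above 0. None of the 9 passed the threshold by limma, edgeR or DESeq2, and at an unadjusted p under 0.05 only Spry2 did, by each of these tools. In limma, 17.3% of all tested genes had an unadjusted p under 0.05 in the cerebellum. Of all tested genes, 5.36% were DEGs in the cerebellum, 0.917% in the higher and 4.44% in the lower direction.

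Spry2 had normalized counts of 1725, 1842 and 1730 in the WT cerebellum (libraries 2, 4 and 6) and of 2018, 2016 and 2011 in the SCA1 KI cerebellum (1, 3 and 5). All SCA1 KI libraries were above all WT libraries, a separation seen in 1 of 9 members and in 14.3% of the tested genes. The LFC was 0.19 (standard error 0.086, unadjusted p = 0.046, adjusted p = 0.276, limma). With the cerebellum fitted on its own the adjusted p was 0.0423, and the LFC was still under the limit of 0.25. Dusp6 had 688, 955 and 779 in WT against 1030, 1175 and 815 in SCA1 KI cerebellum, with an LFC of 0.31 (standard error 0.19, adjusted p = 0.442, limma). Only SCA1 KI library 5 lay within the WT range.

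The cerebellar values of the Ets factors and of the other inhibitors overlapped between the genotypes. Etv1 had 9844, 15035 and 13339 in WT and 14802, 15401 and 14232 in SCA1 KI cerebellum (LFC 0.24, standard error 0.13, adjusted p = 0.385, limma). Etv4 had 491, 452 and 565 in WT and 690, 665 and 562 in SCA1 KI cerebellum (LFC 0.35, standard error 0.18, adjusted p = 0.344, limma). Without the low WT library 2 the LFC of Etv1 was 0.06, and for Etv4 only SCA1 KI library 5 fell within the WT range. Dusp4 had 268, 462 and 377 in WT and 677, 603 and 382 in SCA1 KI cerebellum, the largest LFC of the 9 at 0.58 (standard error 0.35, adjusted p = 0.44, limma). The LFCs of Etv5, Spry4, Spred1 and Spred2 were 0.08, 0.14, −0.02 and 0.27, with standard errors of 0.20, 0.28, 0.12 and 0.20. WT library 2 was the lowest of the 6 cerebellar libraries for 7 of 9 members, on average 0.27 (log2) below the WT mean, and without it the LFCs of Etv5 and Spry4 were −0.09 and −0.11.

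**Figure D3:**
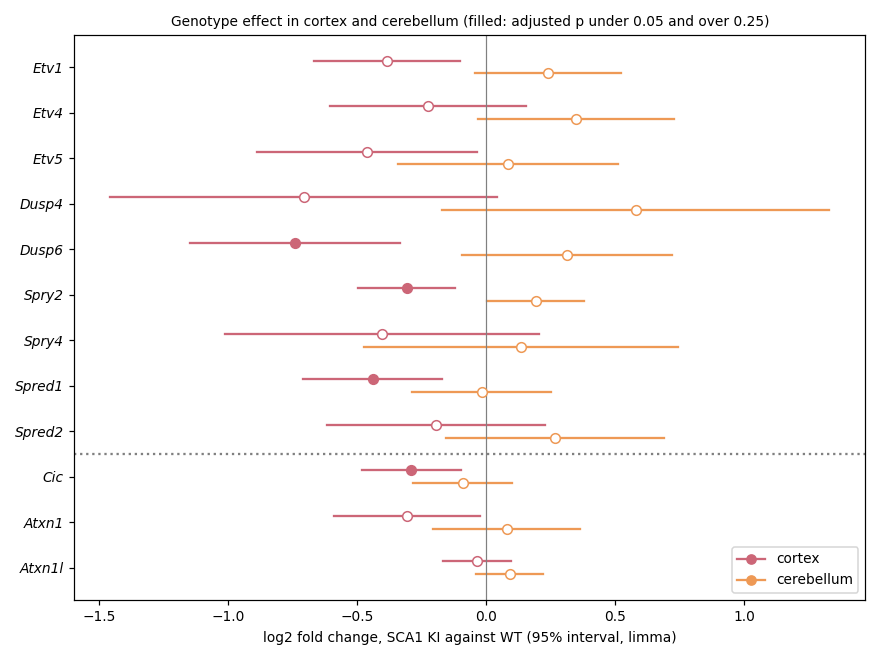
LFC of SCA1 KI against WT (x axis, log2, bars are 95% intervals from limma, 3 libraries for each group) in the cortex and in the cerebellum for the 9 Capicua target genes and, under the dotted line, for Cic, Atxn1 and Atxn1l. Filled points pass the adjusted p and the limit on the LFC, and among the 9 target genes these are Dusp6, Spry2 and Spred1 in the cortex.

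Whether the effect of genotype differed between the regions was tested in the same fit as a difference of LFCs, cortex minus cerebellum. It was below 0 for all 9 members, from −1.29 to −0.42 with a median of −0.55 (all tested genes, 0.0082), and passed an adjusted p under 0.05 for Dusp6 and Spry2. Of all tested genes 8.15% passed, 4.89% with a value below 0 and 3.26% above. The difference was −1.05 for Dusp6 (standard error 0.27, adjusted p = 0.028, limma), with a 95% interval of −1.63 to −0.48, and −0.50 for Spry2 (standard error 0.12, adjusted p = 0.024, limma), with an interval of −0.77 to −0.24. For Etv1 it was −0.62 (adjusted p = 0.056, limma), and Etv1 passed in DESeq2 (adjusted p = 0.0196). The regional difference was −0.42 for Spred1 (adjusted p = 0.181, limma), which fell in the cortex but was not shown to differ between the regions. At an unadjusted p under 0.05, 6 of the 9 passed, and 21.4% of all tested genes did.

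The count of 2 members changed with single libraries as well. It was 0 without SCA1 KI cerebellar library 1 or 3 or WT cerebellar library 6, and 1 without SCA1 KI cerebellar library 5 (Dusp6), WT cerebellar library 2, cortex library A, C or F (Spry2 in each of these cases). It was 3, with Etv1, without WT cerebellar library 4. The value itself ranged from −1.20 to −0.84 for Dusp6 and from −0.56 to −0.38 for Spry2 over the 12 libraries left out, with adjusted p of at most 0.078 and 0.0617. With WT libraries C and 2 both left out, a choice made after the values were seen, Spry2 was called at −0.36 (adjusted p = 0.0362) and Dusp6 was not at −0.73 (adjusted p = 0.105).

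Most of the 9 members varied together from library to library within a group. After the mean of its group was taken from each library's log2 value, the median Pearson r over the 36 pairs of members was 0.78, all 36 were above 0, and 29 were above 0.5. These are 12 libraries with 4 group means removed, each pair of genes shares the libraries, and the values are a description. Dusp6 was the member closest to the others, with a median r of 0.86 to the other members, where 0.8% of all tested genes had a higher r to Dusp6 than that. Etv4 was the least close, at 0.29, and 37.1% of all tested genes had a higher r to it than that, against at most 6.86% for the other 8. Dusp4 and Spry4 formed the pair with the highest r, at 0.97. The median r of a member to all tested genes lay between −0.0033 and 0.068.

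Some of the same libraries stood apart in the immediate early genes, which neuronal activity induces through ERK and calcium. Over the 12 genes listed (Fos, Fosb, Junb, Egr1, Egr2, Egr3, Egr4, Arc, Npas4, Nr4a1, Ier2 and Dusp1), library C was on average 0.40 (log2) above the WT cortex mean, libraries A, E and F 0.55, 0.72 and 0.92 below it, and WT cerebellar library 2 was 0.34 below its WT mean. All 12 LFCs were below 0 in the cortex, with a median of −0.68, and 5 of 12 fell, namely Arc (−1.39), Egr2 (−1.65), Egr3 (−1.03), Dusp1 (−0.95) and Egr1 (−0.76), beside 10.8% of all tested genes. Without library C or F, 3 were called (Egr3, Arc and Dusp1), and 8 without library A. In the cerebellum 1 of 12 fell (Egr3, −2.49), beside 4.44% of all tested genes. Library A was lowest for all Capicua target genes, whereas library F had the lowest mean of the immediate early genes. In the SCA1 KI cerebellum the means over the target genes were 0.33, 0.38 and 0.0016 above the WT mean in libraries 1, 3 and 5. Those over the immediate early genes were 0.17, −0.42 and −0.46, with the lowest gene at −2.45, −2.61 and −2.40. Above the WT mean were 10, 3 and 3 of these 12 genes, and the median of their cerebellar LFCs was −0.06. The part of these libraries' general state in the results was not tested.

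**Figure D4:**
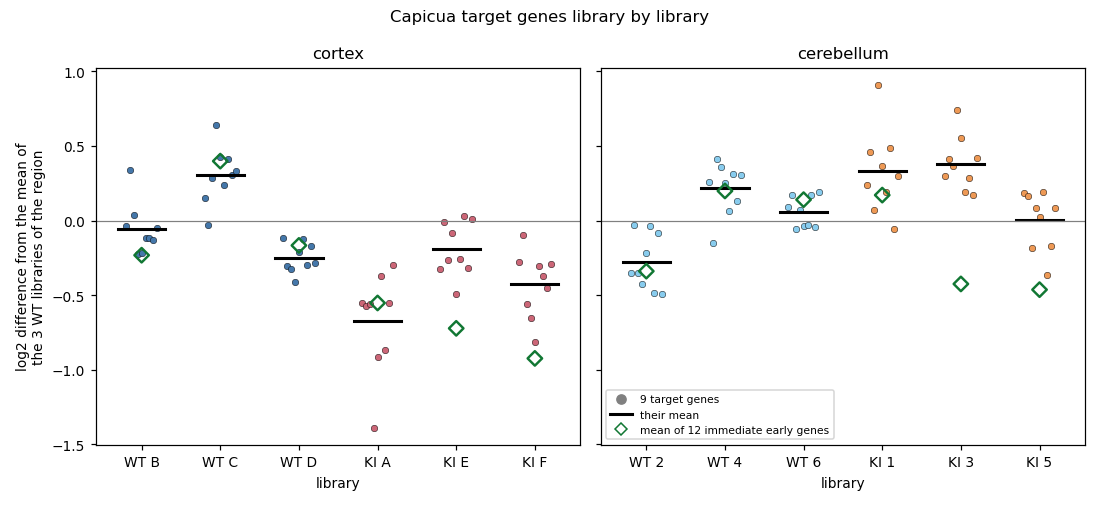
Difference in log2(normalized count + 1) from the mean of the 3 WT libraries of the region (y axis) for each of the 9 Capicua target genes (points) in each library (x axis), with their mean (black bar) and the mean over 12 immediate early genes (open diamond). In the cortex library C is high and A low for the target genes, and in the cerebellum the means of the SCA1 KI libraries lie at or above 0.

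Transcripts of other cell types and of neighbouring tissue moved with genotype too. Slc17a7 was higher in the cortex and Gabra6 in the cerebellar libraries. Slc17a7, a vesicular glutamate transporter of cortical excitatory neurons, had 41177 to 62252 normalized counts in the cortex and 11695 to 19972 in the cerebellar libraries. Gabra6, the receptor subunit of cerebellar granule cells, had 20711 to 32164 in the cerebellar and 0 to 42.1 in the cortex libraries. The summed count of 6 markers of cortical excitatory neurons was 87239 to 89273 in the WT and 58868 to 69415 in the SCA1 KI cortex. Of these, 3 of the 6 fell (Cux2, Rorb and Slc17a7), beside 10.8% of all tested genes. The sum of 6 markers of thalamus and midbrain was 1922 to 2261 in the WT and 3006 to 3788 in the SCA1 KI cortex. There 3 of 6 rose (Pou4f1, Tal1 and Shox2, the last listed at 0 in all WT cortex libraries), beside 4.82% of all tested genes. The LFC was below 0 for 2 of the 6, and Lef1 had 286 to 336 counts in SCA1 KI against 340 to 409 in WT cortex. Slc17a6, which was not called, had 1364 to 2376 against 1267 to 1555. In the cerebellum the sum of the 6 thalamus and midbrain markers was 4935 to 10159 in WT and 1491 to 1868 in SCA1 KI. There 6 of 6 fell, beside 4.44% of all tested genes. The summed counts of the 6 oligodendrocyte markers were 178046 to 266831 in the WT and 152414 to 152494 in the SCA1 KI cerebellum. WT library 2 was the highest for all 6 of them, and 5 of the 6 had an unadjusted p under 0.05 (limma), beside 17.3% of all tested genes. The summed counts of the 6 granule cell markers were 108500 in WT library 2 and 148773 to 158838 in the other cerebellar libraries. None of the oligodendrocyte and granule cell markers was called in the cerebellum by limma, beside 5.36% of all tested genes. The 6 astrocyte markers summed to 50556 to 55635 in the WT and 33620 to 43869 in the SCA1 KI cortex, where 3 of 6 fell (Aqp4, Aldh1l1 and Slc1a3), and library A, the lowest for the target genes, was the lowest for 5 of the 6. The 6 markers of forebrain interneurons summed to 33018 to 35470 and 23847 to 31478 (Gad1 and Pvalb fell), and those of oligodendrocyte precursors to 7169 to 8584 and 5602 to 6837 (Gpr17 and Vcan fell). The falls among the astrocyte, interneuron and precursor markers stand beside 10.8% of all tested genes. Of the 6 endothelial markers none was called in the cortex by limma. At an unadjusted p under 0.05, 1 of the 6 passed, beside 30.5% of all tested genes. All 6 LFCs were below 0, and library A was the lowest for all 6. In library C, the highest for most target genes, the excitatory markers lay on average 0.044 (log2) above the WT mean, against 0.035 and −0.079 in B and D. The part of tissue composition in the results was not tested.

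Cic itself, the repressor, had normalized counts of 7868, 6848 and 7246 in the WT cortex and of 5566, 6294 and 6092 in the SCA1 KI cortex. The groups did not overlap, and the LFC was −0.29 (standard error 0.089, adjusted p = 0.0394, limma) for a fall to 0.818 of the WT level. With all libraries kept, the call was lost in 3 alternatives. These include the limit of 1 on the absolute LFC, by construction, and the correction of each library for gene length and GC (LFC −0.03, adjusted p = 0.86, limma). The call was also lost without library A, B, D, F, 1 or 3. Library C, the highest for 8 of 9 targets, was the lowest WT library for Cic. Library A, the lowest for 9 of 9 targets, also had the lowest Cic count of the 6 cortex libraries. The relation of Cic to its targets across libraries was not tested. In the cerebellum Cic had 5918, 7258 and 7316 in WT and 6556, 6692 and 5928 in SCA1 KI (LFC −0.09, standard error 0.089, adjusted p = 0.683, limma). Its level does not measure its activity, which phosphorylation controls.

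Atxn1, the knock-in gene and a partner of Cic, had an LFC of −0.31 in the cortex (standard error 0.13, adjusted p = 0.132, limma) and of 0.08 in the cerebellum (standard error 0.13, adjusted p = 0.837, limma). It shares 375 bases of exon with Gmpr. Atxn1l, the ataxin-1-like partner, had LFCs of −0.04 (standard error 0.061) and 0.09 (standard error 0.061) and passed in neither region. The counts say nothing of the length of the repeat, so they do not check the genotype.

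Between the regions of WT mice, 6 of the 9 members differed, 4 higher and 2 lower in the cortex, where 61.7% of all tested genes did (31.0% higher, 30.7% lower). Dusp6 had an LFC of 2.15 (cortex minus cerebellum, standard error 0.19, adjusted p = 4.26e-07, limma), a level 4.42 times as high in the cortex, and Etv5 (0.79), Spred1 (0.50) and Spry2 (0.32) were higher there as well. Etv1 was lower in the cortex, with an LFC of −2.23 (standard error 0.13, adjusted p = 8.64e-09, limma), as was Etv4 (−0.51). Dusp4, Spry4 and Spred2 did not pass, at 0.37, −0.59 and 0.33. In SCA1 KI mice Dusp6 was higher in the cortex by 1.09, and Etv1, Etv4, Spry4 and Dusp4 were lower by −2.85, −1.08, −1.13 and −0.92, where 62.4% of all tested genes differed (32% higher, 30.5% lower). Without library C the WT values were 0.20 for Spry2, under the limit on the LFC, and −0.49 for Etv4 (adjusted p = 0.0538), which also missed the threshold without WT libraries D or 6. Spry4 passed without WT library 2 (−0.83) or C (−0.80).

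Levels between the 9 genes were compared per kb of merged exons. Spred1 had the highest level in every group, at 1960 ± 378 normalized counts per kb in the WT cortex, 1431 ± 118 in the SCA1 KI cortex, 1373 ± 112 in the WT cerebellum and 1360 ± 169 in that of SCA1 KI mice (SD, n = 3 in each group), above the next gene in every library. In the WT cortex it was followed by Etv5 (1230), Dusp6 (1157), Spry2 (1064) and Spred2 (817), neighbours whose libraries overlapped. Etv1 (202), Dusp4 (179), Spry4 (174) and Etv4 (115) formed a lower set, below Spred2 in every library and overlapping among themselves. In the SCA1 KI cortex Dusp6 stood at 682 ± 107 per kb and came after Spry2 (853 ± 33.7) and Spred2 (707 ± 88.4), overlapping with Spred2. In the cerebellum Etv1 was second, at 958 ± 199 in WT, where it overlapped with Spry2 (846 ± 31.8), and at 1114 ± 44.0 in SCA1 KI, where it did not, and Dusp6 belonged to the lower set, at 258 ± 43.3 and 321 ± 57.8. Etv4 and Dusp4 had the lowest levels there, at 162 ± 18.5 and 135 ± 35.5 in WT.

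The other genes of the pathway, taken from lists by their role, differed from list to list. Among 15 tested genes that are further ERK feedback or Cic-linked output genes, 4 fell in the SCA1 KI cortex and 0 rose, with a median LFC of −0.37. These were Dusp7, a cytoplasmic ERK phosphatase (2537 normalized counts on average against 4594 in WT, LFC −0.87, adjusted p = 6.4e-05), Ccnd1, which encodes cyclin D1 (LFC −0.51, adjusted p = 0.0198), Phlda1 (−0.39, adjusted p = 0.025) and the adaptor gene Shc3 (−0.59, adjusted p = 0.0282), all by limma. In the cerebellum Ccnd1 rose (LFC 0.54, adjusted p = 0.0335, limma), the direction in which most Capicua target genes had their values. The list itself went the other way, with 13 of the 15 below 0 and a median of −0.15, where 51.3% of all tested genes lay below 0. DESeq2 called 2 of the 15 as lower there. The rise of Ccnd1 was lost without any 1 of the 6 cerebellar libraries. In the cortex the falls of Ccnd1 and Shc3 were also lost without library A or B and that of Phlda1 without A. Only Dusp7 was called there without WT library C, and likewise with each region fitted on its own.

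Of the 22 genes of the cascade from adaptor to ERK and its Rsk kinases, 3 fell and 2 rose in the SCA1 KI cortex, with a median LFC of −0.05. Mapk3, which encodes ERK1, rose (LFC 0.45, adjusted p = 0.00662), as did the Raf kinase gene Araf (0.26, adjusted p = 0.0381), and the scaffold gene Ksr2 (−0.53) and the Rsk genes Rps6ka2 (−0.39) and Rps6ka3 (−0.41) fell (adjusted p = 0.0171, 0.00755 and 0.0184, limma). None of the 22 was called in the cerebellum by limma, edgeR or DESeq2, beside 5.36% of all tested genes in limma. At an unadjusted p under 0.05 in limma, 1 of the 22 passed there, beside 17.3% of all tested genes. The rise of Araf was lost on leaving out any 1 of 8 libraries, the fall of Rps6ka3 without library A, C or F and that of Ksr2 without library B. With the cortex fitted on its own the adjusted p were 0.0525 for Rps6ka3 and 0.0509 for Ksr2 (limma).

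Upstream, 6 of 14 receptor tyrosine kinase genes fell in the SCA1 KI cortex and 0 rose, with a median LFC of −0.24. Erbb4, the neuregulin receptor of interneurons, had the smallest adjusted p (LFC −0.61, adjusted p = 0.000405, limma), and Fgfr3 (−0.50), Ntrk2 (−0.34), Ntrk3 (−0.32), Igf1r (−0.34) and Egfr (−0.42) also fell. The count was 3 after the correction for gene length and GC (Egfr, Erbb4 and Fgfr3), and Erbb4, Fgfr3 and Ntrk2 were the 3 called without library A or B. Both edgeR and DESeq2 called Met as higher. Of 13 ligand genes 2 fell in the cortex, Fgf9 (LFC −0.81, adjusted p = 9.41e-05) and Hbegf (−0.47, adjusted p = 0.0017), and 1 fell in the cerebellum, Fgf1 (−0.39, adjusted p = 0.0131, limma). The fall of Fgf1 was lost without SCA1 KI library 1 or 5, and 4 ligand genes fell in the cortex without SCA1 KI library F. The counts of 4 in 15, 5 in 22, 6 in 14 and 2 in 13 stand beside 15.6% DEGs among all tested genes.

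**Figure D5:**
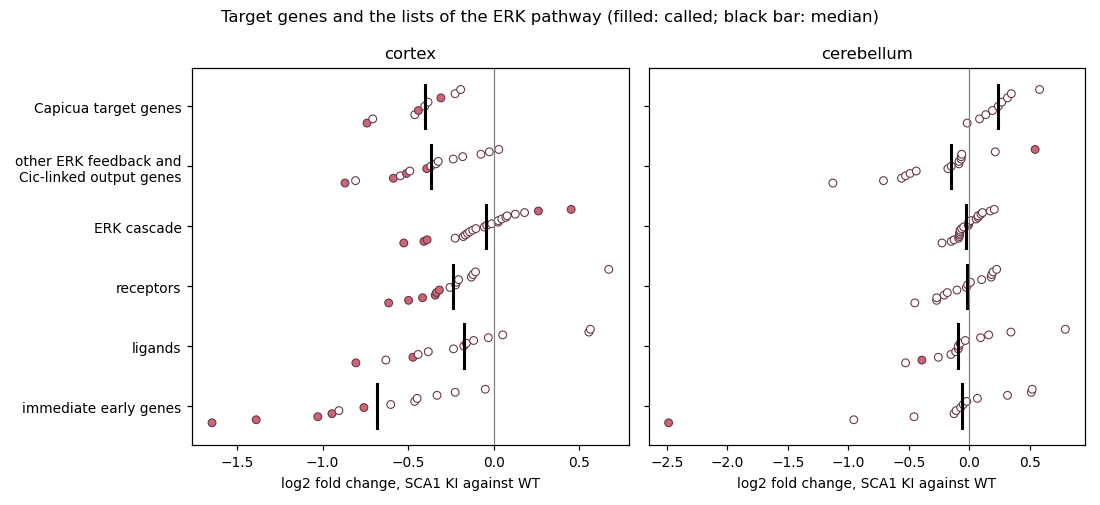
LFC of SCA1 KI against WT (x axes, log2) in the cortex and the cerebellum for the 9 Capicua target genes and for the lists of the ERK pathway and of immediate early genes, with 1 point for each gene and a black bar for the median. Filled points pass the adjusted p and the limit on the LFC. In the cortex the medians of the target genes and of the further output genes are −0.40 and −0.37, that of the cascade is −0.05.

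The genes most like the called members across the 12 libraries, with each region centred on its own mean, were Dusp3 (Pearson r = 0.96) and Rps6ka3 (0.96) for Dusp6, Ugcg (0.98) and Syncrip (0.98) for Spry2, and Fam53b and Pik3ca (0.95 each) for Spred1. Dusp3 encodes another dual-specificity phosphatase and Rps6ka3 the kinase Rsk2, Ugcg an enzyme of glycosphingolipid synthesis, Syncrip an RNA-binding protein and Pik3ca the catalytic subunit of a phosphoinositide kinase. The centring leaves the effect of genotype in, so that any gene that fell in the cortex and not in the cerebellum could score high. Dusp3 had 10815 ± 901 normalized counts in the WT and 8309 ± 529 in the SCA1 KI cortex, and 5807 ± 615 and 6162 ± 395 in the cerebellum (SD, n = 3 each).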

How the data were processed

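Poly-adenylated RNA of whole cortex and cerebellum was sequenced in 12 libraries. Per the labels and the study's methods, the authors used STAR for alignment to mm10, featureCounts for counting and DESeq2 for normalization. Versions, annotation and strandedness are not given in the sources used here. The deposited signal is a normalized count, each library's reads over its size factor, and 100% of the values gave whole reads (tolerance 0.01). No column belonged to another sample.

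log2(normalized count + 1) was fitted for 15369 genes whose mean reached 10 normalized counts (390 did not) by limma 3.58.1 with its trended empirical Bayes step (R 4.3.3), with 12 libraries and 4 group means. DEGs passed a Benjamini-Hochberg adjusted p of 0.05 with an LFC beyond 0.25 in either direction, and the difference between the regions needed the adjusted p alone. The pseudocount understates changes of low genes. The recovered reads were tested with edgeR 4.0.16 (quasi-likelihood) and DESeq2 1.42.0. All 3 tools were run on simulated counts in which every gene had the same fixed spread. This does not check them at the spread of the members.

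Members and lists were chosen with earlier results of these data known. All members and Cic, Atxn1 and Atxn1l were named, list genes where called, and the 2 most like genes of each called member. Replicates are separate samples by their labels, and p-values measure the spread between these samples. Coordinates are from GENCODE vM21 (GRCm38), which matched 14979 of 15758 symbols. Promoters are from RefSeq. Proteins were not used here. The alternatives were a pseudocount of 0.5 or 5, a minimum mean of 100 or none, median centring, TMM factors, each region fitted on its own, edgeR, DESeq2, an LFC limit of 1 or none, correction of each library for a trend on gene length and GC (14620 genes), and 12 fits that left out 1 library each.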

Additional observations from a re-analysis of the deposited data

Results flagged for a closer look

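The effect of genotype differed between the regions, by the test of the difference itself (limma, adjusted p under 0.05), for 2 Capicua target genes, by −1.05 for Dusp6 and −0.50 for Spry2 (log2, cortex minus cerebellum). For both the LFC was below 0 in the cortex and above 0 in the cerebellum, and the cerebellar effect alone passed for neither.

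Among the genes of the pathway lists, the difference was −0.80 for Dusp7, −1.05 for Ccnd1, 0.60 for Mapk3, −0.58 for Rps6ka3, −0.84 for Erbb4, −0.51 for Ntrk3 and −0.90 for Fgf9. Ccnd1 is the only one of these 7 with a call in both regions, in opposite directions. Among the immediate early genes it was 1.46 for Egr3, −1.28 for Arc and −1.01 for Dusp1, where Egr3 fell in both regions, with the larger LFC in the cerebellum. In edgeR the difference of Egr3 did not pass (adjusted p = 0.0666). The difference missed the threshold for Mapk3 without SCA1 KI cerebellar library 3, for Ntrk3 without library 1 and for Rps6ka3 without any 1 of 9 libraries (A, B, C, F, 1, 2, 3, 5 and 6). Of all tested genes 8.15% passed the same test.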

How the results depend on the processing

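Of 108 cortical values of the 9 members under alternatives that kept all libraries, 0 changed direction, 5 lost a call (3 under an LFC limit of 1, and Spry2 and Spred1 with the cortex fitted on its own) and 2 gained one (Etv1). The count of 3 members lower in the SCA1 KI cortex was 0 with a limit of 1 on the absolute LFC, by construction, and 0 to 4 with 1 library left out. It was 1 (Etv1) with WT libraries C and 2 both left out, a choice made after the data were seen. The count of 2 members with a difference between the regions was 1 with these 2 libraries left out and 0 to 3 with 1 library left out. The counts of members higher in the cortex and higher or lower in the cerebellum were 0 under every alternative run.

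Values near 0 changed direction. Spred1 in the cerebellum was 0.0064 with median centring and 0.0035 after correction for gene length and GC, under which Cic in the cerebellum was 0.026 and Atxn1l in the cortex 0.10. Without WT libraries C and 2, Etv5 (−0.092) and Spry4 (−0.11) in the cerebellum and Dusp4 (−0.16) and Spred2 (−0.080) between the WT regions changed direction. With 1 library left out, the cerebellar ranges were −0.11 to 0.060 for Spred1, −0.092 to 0.29 for Etv5 and −0.11 to 0.39 for Spry4, and Atxn1l in the cortex ranged from −0.067 to 0.016. The causes were not tested.

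No paired analysis was possible because the deposited columns carry marks of their own and not the replicate numbers of the labels. With 3 libraries a group, the 95% interval of the cortical LFC ran from −0.50 to −0.12 for Spry2, the narrowest of the 9, and from −1.46 to 0.04 for Dusp4, the widest.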
